A study of Mus musculus with 16 samples.

Results

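The chemokines and chemokine receptors of the mouse lung are described here: every gene whose platform symbol begins with Ccl, Ccr, Cxcl, Cxcr, Xcl, Xcr, Cx3c or Ackr and goes on with a digit, r or l. The platform names 55 such genes with 87 probe sets. Of these, 45 genes with 55 probe sets lie in the stretches of the array table whose labels could be matched to values, out of 9866 named genes there. In the deposited table a probe set's name sits some rows away from its values, and the names were moved back as given under the processing. The other 10 (Ackr1, Ccl24, Ccl28, Ccr6, Cx3cr1, Cxcl17, Cxcl2, Cxcl3, Cxcr3 and Cxcr4) are not analysed here, nor are 4 probe sets that carry several symbols.

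The arrays came from a study of experimental asthma in mice. Whole lungs were collected on day 22, 1 day after exposure had ended, and 1 Affymetrix array was hybridised per sample. The 16 arrays form 4 groups of 4: the lines BALB/c and BALB-RAG, each given either ovalbumin (OVA), the egg white allergen of this model, or phosphate-buffered saline (PBS) as the control. The labels do not say which Rag gene is meant, and they give no age, sex, dose or route. Nor do they say that replicates are separate animals, so the p-values rest on a spread between samples that may be technical. Rag proteins cut and join the antigen receptor genes: without them no mature T or B cells form, while macrophages, granulocytes and NK cells do.

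Chemokines are small secreted proteins that form gradients along which leukocytes move. Their receptors are G protein-coupled and are read through Gi proteins, phosphoinositide 3-kinase and Rac, and the atypical receptors bind chemokines without that signal and clear them. In allergic lungs the ligands of CCR3, CCR4 and CCR8 are known for drawing eosinophils and type 2 helper T cells, the ligands of CXCR3 for drawing interferon-producing T cells and NK cells, and those of CCR1 and CCR2 for drawing monocytes and other myeloid cells.

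Levels are given as log2 of the deposited intensity, and a difference of 1 on that scale is a doubling. Log2 4 was taken as the background, and a gene was tested when it exceeded that level on at least 4 arrays. That left 30 of the 45 genes, among 7276 tested genes in all. The 15 genes that did not pass were Ccl3, Ccl4, Ccl7, Ccl12, Ccl20, Cx3cl1, Cxcl11, Xcl1, Ccr1l1, Ccr3, Ccr4, Ccr8, Ccr10, Xcr1 and Ackr4. The filter is not neutral for a gene that is high in 1 group: Ccl1, Ccl2, Ccl25, Cxcl1, Cxcl9 and Cxcr6 exceeded log2 4 on fewer than 4 arrays outside BALB/c after OVA, as did 132 of all 7276 tested genes. Differences were fitted with limma over all 16 arrays, with Benjamini-Hochberg adjustment over the 7276 genes and a threshold of 0.05.

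Array medians lay between intensities of 18.2 and 20.5, and 4 arrays per group limit the precision. The lung markers were high, with Sftpc (surfactant protein C) at a mean of log2 14.34 over all arrays. Lymphocyte transcripts went against part of the BALB-RAG labels, so groups are named as labelled throughout. The T cell list (13 genes tested) averaged log2 4.22 to 4.61 on the BALB/c PBS arrays and 4.22 to 4.63 for the PBS arrays labelled BALB-RAG. On the OVA arrays of that label it averaged 3.41, 4.95, 3.67 and 3.59 on replicates 1 to 4. The B cell list (9 genes tested) averaged 5.85 to 6.26 on the BALB/c PBS arrays and 4.92 to 5.34 for the PBS arrays labelled BALB-RAG. It averaged 3.89, 5.99, 3.88 and 3.89 on the OVA arrays with that label. OVA replicate 2 labelled BALB-RAG therefore stands apart from its 3 fellows, and results that rest on it are given without it too. The NK cell list (4 genes tested), whose cells do not need Rag, averaged 4.96 to 6.49 on the BALB/c PBS arrays and 3.91 to 4.75 on the PBS arrays labelled BALB-RAG. Rag2 averaged log2 3.11 over all arrays, under the background, and checks nothing.

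Cell type transcripts also moved with OVA in BALB/c, where 8.73% of all tested genes rose and 6.78% fell. Of the macrophage list 4 of 6 tested genes rose, among them C1qb (log2 difference 3.53) and Itgax (2.91), and the list mean went from 8.32 to 8.96 after PBS to 9.89 to 10.75 after OVA. Of the dendritic cell list 8 of 9 rose, among them Cd86 (2.05) and H2-Aa (1.34), of the T cell list 8 of 13, among them Ctla4 (1.91) and Cd28 (1.64), and of the B cell list 4 of 9, among them Cd72 (1.95) and Fcer2a (1.89). Of the eosinophil list 1 of 4 tested genes rose, Rnase2a (6.95), and the 3 others gave 0.64 (Siglecf), 0.51 (Il5ra) and -0.69 (Ltc4s), with limma adjusted p from 0.109 to 0.505. Of the plasma cell list 3 of 6 rose. The club cell list fell in 4 of 5 genes (median difference of the list -0.81) and the endothelium list in 4 of 9 (median -0.54). Of the neutrophil and NK cell lists 0 of 4 tested genes each passed the test. On the arrays labelled BALB-RAG the adipose list (Adipoq and Fabp4) averaged 9.03 to 11.53, against 5.61 to 9.46 in BALB/c. Prg2 of the eosinophil list, Pax5 of the B cell list, Eomes of the NK cell list, Siglec1 of the macrophage list, and Elane, Mpo and Camp of the neutrophil list did not pass the filter on low values. Fewer cells of a type and less RNA per cell cannot be told apart in whole lung, and the part of these cells in the chemokine results was not tested.

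**Figure D1:**
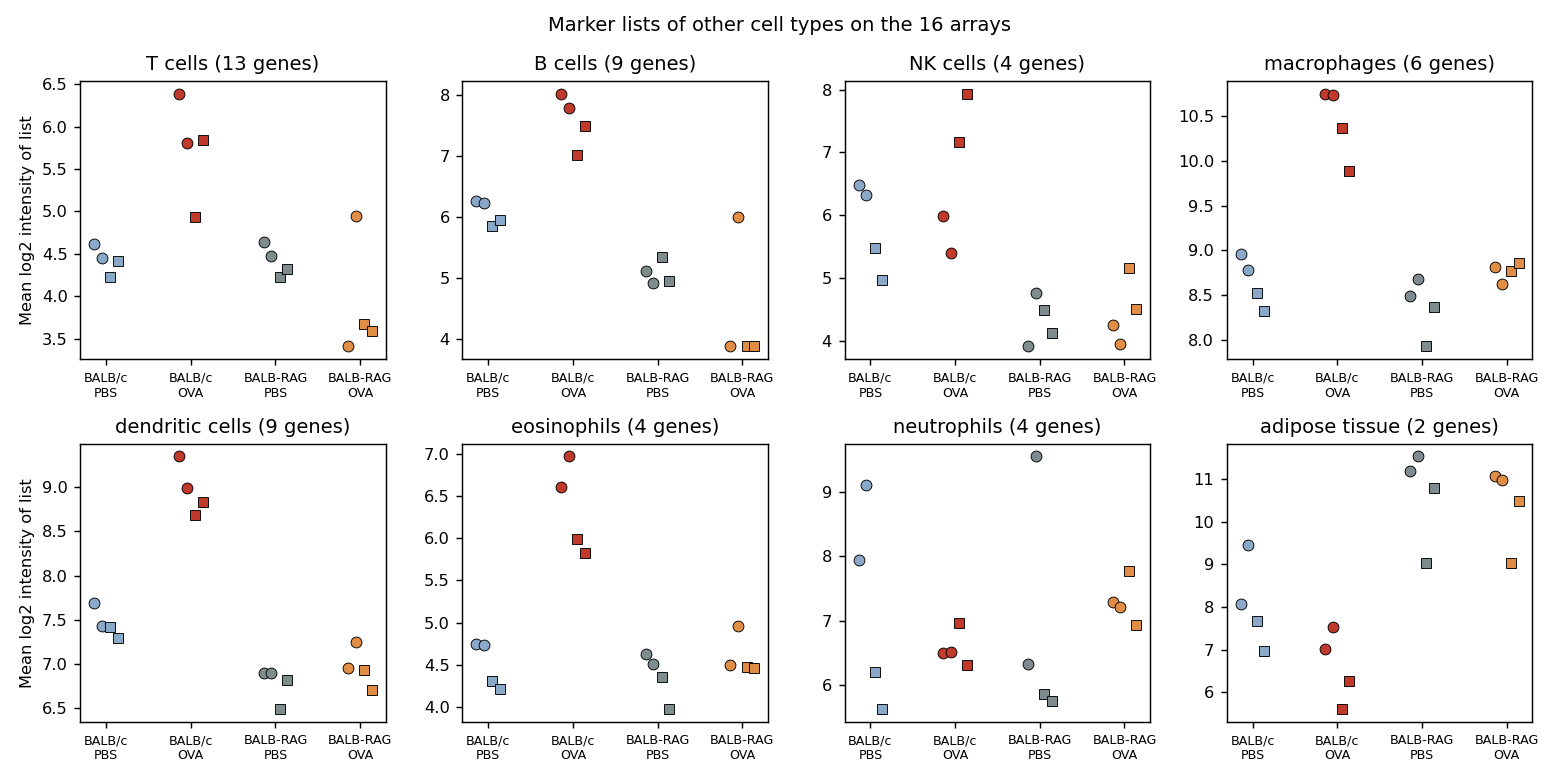
Mean log2 intensity of 8 marker lists (y axis) on each array, by group (x axis); circles are replicates 1 and 2 and squares are replicates 3 and 4, and the number of genes averaged is in each panel title. The T and B cell lists of OVA replicate 2 labelled BALB-RAG (4.95 and 5.99) lie above the 3 other arrays of that group.

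Within BALB/c, the OVA and PBS arrays were compared for the chemokines and receptors that follow allergen exposure. Of the 30 tested genes 16 rose and 0 fell. Of all 7276 tested genes 15.5% passed the test, 8.73% higher and 6.78% lower. The median log2 difference was 1.24 over the 30 genes and 2.2e-05 over all tested genes. The 16 were Ccl8, Cxcl9, Ccl9, Ccl11, Ccl17, Cxcl10, Cxcr6, Ccr1, Cxcl16, Ccl6, Ccl5, Cxcl1, Ccl22, Ccr2, Ccl2 and Cxcr5, with log2 differences from 0.87 (Cxcr5) to 6.44 (Ccl8). Of these, Ccl2, Cxcl1, Cxcl9 and Cxcr6 passed the filter only through the BALB/c OVA arrays, which favours a rise. Genes that passed in that way were 6 of the 30 and 132 of all 7276, so the shares are not like for like. At an unadjusted p under 0.05, 18 of the 30 were higher, against 14.1% of all tested genes, and 4 (Cxcl14, Ccrl2, Ccl27a and Ackr3) were lower, against 13.4% of all. For 13 of the 30 the 4 OVA arrays all lay above the 4 PBS arrays, which held for 10.3% of all tested genes. Of the 16 genes, 9 (Ccl6, Ccl8, Ccl9, Ccl11, Ccl17, Cxcl9, Cxcl10, Cxcl16 and Cxcr6) kept their call under every other analysis setting named under the processing and with any single array left out. The names of 4 of the 16 (Ccl2, Ccr2, Cxcr5 and Cxcr6) come from the second stretch of the table, and those of the 12 others from the first.

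**Figure D2:**
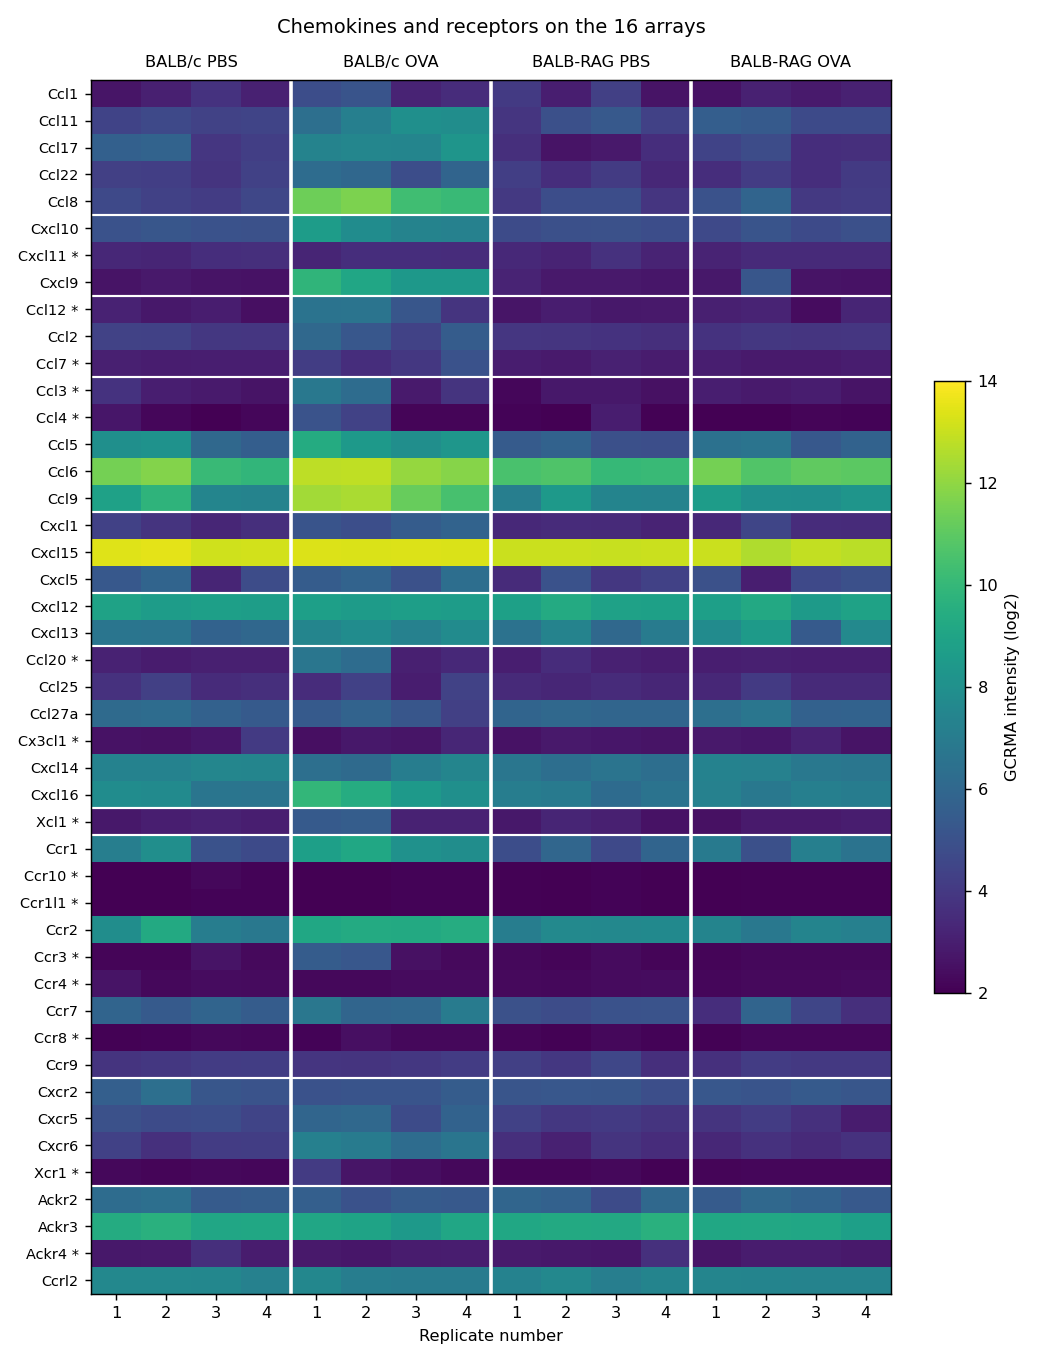
Log2 intensity (colour) of the 45 genes (rows, ordered by role, with white lines between roles) on the 16 arrays (columns, by group and replicate number); an asterisk marks the 15 genes that were not tested. The rows of Ccl8 (10.15 to 11.63) and Cxcl9 (8.40 to 9.84) are bright in the BALB/c OVA columns and read at most 5.89 and 5.21 in the others.

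Among the ligands known for drawing eosinophils and type 2 helper T cells, 4 of 5 tested genes rose in BALB/c: Ccl8, Ccl11, Ccl17 and Ccl22. Ccl8, which in the mouse acts through CCR8, had the largest difference of the 30. In BALB/c, Ccl8 read log2 4.65, 4.33, 4.11 and 4.57 on PBS replicates 1 to 4, and OVA replicates 1 to 4 read 11.33, 11.63, 10.33 and 10.15. Ccl8 on the arrays labelled BALB-RAG read log2 3.99, 4.83, 4.85 and 3.86 with PBS, and with OVA it read 5.01, 5.89, 3.99 and 4.13. All 4 BALB/c OVA arrays lay more than 4 log2 units above every other array, and the 12 other arrays overlapped. Ccl8 rose 87.0-fold in BALB/c, by 6.44 ± 0.41 (log2 difference, SE, n = 4 per group, limma adjusted p = 6.95e-08).

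Ccl11, or eotaxin, is the CCR3 ligand named for its pull on eosinophils. In BALB/c, Ccl11 read log2 4.43, 4.65, 4.39 and 4.47 on PBS replicates 1 to 4, and OVA replicates 1 to 4 read 6.40, 7.16, 7.97 and 7.87. Ccl11 on the arrays labelled BALB-RAG read log2 3.87, 4.94, 5.34 and 4.33 with PBS, and with OVA it read 5.60, 5.41, 4.71 and 4.72. Again the 4 BALB/c OVA arrays were the highest, with replicates 3 and 4 above replicates 1 and 2. Ccl11 rose 7.30-fold in BALB/c, by 2.87 ± 0.35 (log2 difference, SE, n = 4 per group, limma adjusted p = 6.09e-05).

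Ccl17 and Ccl22 are the ligands of CCR4, the receptor of type 2 helper T cells. Ccl17 levels in BALB/c were log2 5.70, 5.80, 3.92 and 4.20 on the PBS arrays and 7.37, 7.53, 7.48 and 8.24 on the OVA arrays. For Ccl17, the arrays labelled BALB-RAG gave log2 3.64, 2.62, 2.84 and 3.59 with PBS, and 4.42, 4.80, 3.57 and 3.62 with OVA. Every BALB/c OVA array lay above all others, and BALB/c PBS replicates 1 and 2 lay above replicates 3 and 4. Ccl17 rose 6.73-fold in BALB/c (2.75 ± 0.42, log2 difference and SE, limma adjusted p = 3.97e-04). Ccl22 levels in BALB/c were log2 4.26, 4.24, 3.81 and 4.32 on the PBS arrays and 6.26, 6.01, 4.82 and 5.85 on the OVA arrays. For Ccl22, the arrays labelled BALB-RAG gave log2 4.22, 3.59, 4.08 and 3.33 with PBS, and 3.56, 4.15, 3.56 and 4.05 with OVA. As before, the BALB/c OVA arrays were the highest 4, and the other 3 groups overlapped. The rise of Ccl22 was 2.99-fold (1.58 ± 0.28, log2 difference and SE, limma adjusted p = 0.0012). It did not pass among replicates 3 and 4 alone (limma adjusted p = 0.118, against 0.00564 among replicates 1 and 2 alone).

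Ccl1, the other CCR8 ligand of the mouse, was near the background on most arrays. In BALB/c, Ccl1 read log2 2.68, 3.05, 3.75 and 3.08 on PBS replicates 1 to 4, and OVA replicates 1 to 4 read 4.83, 5.10, 3.18 and 3.52. Ccl1 on the arrays labelled BALB-RAG read log2 4.04, 3.0, 4.26 and 2.62 with PBS, and with OVA it read 2.57, 3.10, 2.86 and 3.11. In BALB/c after OVA, replicates 1 and 2 were high and replicates 3 and 4 were at the level of the PBS arrays. Its OVA difference in BALB/c was 1.02 ± 0.43 (log2 difference and SE, limma adjusted p = 0.129).

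The CXCR3 ligands Cxcl9 and Cxcl10 are induced by interferons and draw T cells and NK cells. In BALB/c, Cxcl9 read log2 2.62, 2.84, 2.61 and 2.60 on PBS replicates 1 to 4, and OVA replicates 1 to 4 read 9.84, 9.12, 8.40 and 8.41. Cxcl9 on the arrays labelled BALB-RAG read log2 3.20, 2.82, 2.83 and 2.73 with PBS, and with OVA it read 2.75, 5.21, 2.65 and 2.58. Cxcl9 was under the background on every PBS array and far over it on every BALB/c OVA array, and OVA replicate 2 labelled BALB-RAG was the only other array above log2 4. Against a group whose 4 arrays lie at background only a bound can be given: Cxcl9 was at least 30.8-fold higher in BALB/c after OVA (log2 difference 6.28 ± 0.47, limma adjusted p = 4.36e-07).

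Cxcl10 levels in BALB/c were log2 5.02, 5.19, 5.03 and 4.96 on the PBS arrays and 8.62, 7.84, 7.36 and 7.29 on the OVA arrays. For Cxcl10, the arrays labelled BALB-RAG gave log2 4.75, 4.95, 4.97 and 4.86 with PBS, and 4.65, 5.13, 4.68 and 4.93 with OVA. The BALB/c OVA arrays were more than 2 log2 units above every other array, and the 12 others ranged from 4.65 to 5.19. Cxcl10 rose 6.61-fold (2.73 ± 0.23, log2 difference and SE, limma adjusted p = 1.68e-06). The third ligand of CXCR3, Cxcl11, did not exceed log2 4 on any array (3.18 to 3.71).

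The sequences just upstream of 3 of these ligands are shown because Ccl8 and Cxcl9 had the largest differences and Cxcl10, a near neighbour of Cxcl9 in the genome, rose with it. They are the 250 bases before the annotated start, from RefSeq on GRCm38.p6, 5′ to 3′ on the strand of the gene, at chr11:82114935-82115184 (plus strand, Ccl8), chr5:92328080-92328329 (minus strand, Cxcl9) and chr5:92348890-92349139 (minus strand, Cxcl10). Capitals mark matches, on either strand, to the interferon response element GAAANNGAA, the general STAT element TTCNNNGAA, the STAT6 element (TTC and GAA with any 4 bases between), the NF-kB element (GGG and TTTCC with any 2 bases between), the wider NF-kB consensus and the TATA box TATAAA. The consensus was added after the windows had been seen.
Ccl8: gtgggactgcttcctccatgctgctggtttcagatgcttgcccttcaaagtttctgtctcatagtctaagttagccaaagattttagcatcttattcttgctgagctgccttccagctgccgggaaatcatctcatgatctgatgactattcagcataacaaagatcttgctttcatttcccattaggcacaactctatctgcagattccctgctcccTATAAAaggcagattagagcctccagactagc
Cxcl9: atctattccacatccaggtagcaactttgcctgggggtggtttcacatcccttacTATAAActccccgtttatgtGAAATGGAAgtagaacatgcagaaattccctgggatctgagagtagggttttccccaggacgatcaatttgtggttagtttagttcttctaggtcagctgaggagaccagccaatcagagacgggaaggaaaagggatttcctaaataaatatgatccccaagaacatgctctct
Cxcl10: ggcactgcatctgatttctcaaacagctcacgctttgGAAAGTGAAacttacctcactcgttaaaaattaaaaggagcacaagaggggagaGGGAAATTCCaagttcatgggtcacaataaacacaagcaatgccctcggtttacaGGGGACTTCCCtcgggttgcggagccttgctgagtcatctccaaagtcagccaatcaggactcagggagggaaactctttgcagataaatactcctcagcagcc
The Ccl8 window holds a TATA box that begins 32 bases before the start. In the Cxcl9 window an interferon response element begins 175 bases before the start and a TATA box 195 bases before it, and in the Cxcl10 window an interferon response element begins 213 bases before the start. The Cxcl10 window also holds the wider NF-kB consensus from 159 bases before the start and, in matches on both strands that overlap each other, from 104 and 103 bases before it. Of 32851 promoter windows of this length 7.13% hold GAAANNGAA, 7.02% TTCNNNGAA, 5.85% the STAT6 element, 1.41% the NF-kB element, 7.25% the wider NF-kB consensus and 12.4% TATAAA. RefSeq windows were given for 34 of the 45 genes. Of these, 6 hold GAAANNGAA (Ccl1, Ccl3, Ccr2, Cxcl9, Cxcl10 and Cxcl14), 3 TTCNNNGAA (Ccl17, Ccr1l1 and Cxcl14), 1 the STAT6 element (Ccl17), 4 the NF-kB element (Ccl9, Ccl20, Ccr3 and Cxcl1), 9 the wider NF-kB consensus (Ackr2, Ccl1, Ccl9, Ccl20, Ccr1, Ccr3, Ccrl2, Cxcl1 and Cxcl10) and 12 TATAAA. Of the 11 windows of genes that rose in BALB/c, 3 hold GAAANNGAA (Ccr2, Cxcl9 and Cxcl10), 4 the wider NF-kB consensus (Ccl9, Ccr1, Cxcl1 and Cxcl10) and 3 hold TATAAA (Ccl8, Ccl9 and Cxcl9). These are matches of letters and not measured binding sites.

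The ligands of CCR2, which brings monocytes out of the bone marrow, include Ccl2, Ccl7 and Ccl12, and only Ccl2 passed the filter. In BALB/c, Ccl2 read log2 4.39, 4.30, 3.96 and 3.88 on PBS replicates 1 to 4, and OVA replicates 1 to 4 read 6.04, 5.25, 4.35 and 5.47. Ccl2 on the arrays labelled BALB-RAG read log2 3.90, 3.84, 3.74 and 3.64 with PBS, and with OVA it read 3.78, 3.95, 3.86 and 3.89. Among the BALB/c arrays, OVA replicate 3 lay inside the PBS range, and all 8 arrays labelled BALB-RAG were under log2 4. Ccl2 rose 2.21-fold in BALB/c (1.15 ± 0.25, log2 difference and SE, limma adjusted p = 0.0055), and it did not pass among replicates 3 and 4 alone (adjusted p = 0.129).

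Of the inflammatory CC ligands Ccl3, Ccl4, Ccl5, Ccl6 and Ccl9, the 3 that passed the filter all rose in BALB/c. Ccl9 and Ccl6 are myeloid CCR1 ligands of the mouse, both well over background on every array. Ccl9 levels in BALB/c were log2 8.86, 9.80, 7.47 and 7.37 on the PBS arrays and 12.35, 12.48, 11.23 and 10.49 on the OVA arrays. For Ccl9, the arrays labelled BALB-RAG gave log2 7.14, 8.46, 7.40 and 7.36 with PBS, and 8.62, 8.01, 7.99 and 8.25 with OVA. In BALB/c the OVA arrays did not overlap with the PBS arrays, and replicates 1 and 2 were the higher 2 in each group. Ccl9 rose 9.60-fold (3.26 ± 0.52, log2 difference and SE, limma adjusted p = 5.11e-04).

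In BALB/c, Ccl6 read log2 11.47, 11.76, 10.15 and 9.88 on PBS replicates 1 to 4, and OVA replicates 1 to 4 read 12.81, 12.87, 12.12 and 11.83. Ccl6 on the arrays labelled BALB-RAG read log2 10.56, 10.71, 10.02 and 10.14 with PBS, and with OVA it read 11.48, 10.72, 11.06 and 10.99. In BALB/c the lowest OVA array was above the highest PBS array by less than 0.1, and PBS replicates 1 and 2 were above PBS replicates 3 and 4. The rise was 3.02-fold (1.59 ± 0.37, log2 difference and SE, limma adjusted p = 0.00814). Ccl5, also called RANTES, is made by T cells, NK cells and eosinophils among others. In BALB/c, Ccl5 read log2 7.96, 8.13, 6.04 and 5.59 on PBS replicates 1 to 4, and OVA replicates 1 to 4 read 9.37, 8.45, 7.91 and 8.32. Ccl5 on the arrays labelled BALB-RAG read log2 5.46, 5.76, 4.91 and 4.87 with PBS, and with OVA it read 6.50, 6.61, 5.31 and 5.76. BALB/c PBS replicates 1 and 2 lay within the OVA range, while PBS replicates 3 and 4 lay well under it. The Ccl5 difference of 1.58 ± 0.51 (log2 difference and SE) was close to the threshold (limma adjusted p = 0.0485, and 0.00297 with the replicate number as a block). Without the block its call was lost when any of 12 of the 16 arrays was left out.

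The CXC ligands that draw neutrophils were represented by Cxcl1, Cxcl5 and Cxcl15, and Cxcl1 was the member that rose. In BALB/c, Cxcl1 read log2 4.30, 3.79, 3.27 and 3.62 on PBS replicates 1 to 4, and OVA replicates 1 to 4 read 5.13, 4.86, 5.49 and 5.83. Cxcl1 on the arrays labelled BALB-RAG read log2 3.37, 3.47, 3.45 and 3.18 with PBS, and with OVA it read 3.39, 4.50, 3.53 and 3.45. Over log2 4.8 on all 4, the BALB/c OVA arrays were the highest, and most other arrays were under the background. Cxcl1 rose 2.99-fold in BALB/c (1.58 ± 0.27, log2 difference and SE, limma adjusted p = 8.26e-04), and it did not pass among replicates 1 and 2 alone (adjusted p = 0.132). As 3 of the 4 BALB/c PBS arrays were under log2 4, this fold reaches below the background.

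Cxcl15, or lungkine, is a ligand made by the airway and alveolar epithelium of the mouse lung. Cxcl15 levels in BALB/c were log2 13.42, 13.49, 13.14 and 13.16 on the PBS arrays and 13.35, 13.31, 13.37 and 13.32 on the OVA arrays. For Cxcl15, the arrays labelled BALB-RAG gave log2 13.05, 13.06, 12.99 and 13.04 with PBS, and 13.02, 12.57, 12.90 and 12.78 with OVA. All 8 arrays labelled BALB-RAG lay under all 8 BALB/c arrays, and the BALB/c groups overlapped. Its OVA difference in BALB/c was 0.04 ± 0.12 (log2 difference and SE, limma adjusted p = 0.903). Cxcl5, an epithelial CXCR2 ligand, ranged from 3.25 to 5.87 after PBS and from 4.97 to 6.35 after OVA in BALB/c (log2 difference 0.86 ± 0.54, limma adjusted p = 0.34). Cxcr2, the neutrophil receptor of Cxcl1 and Cxcl5, read 5.66, 6.38, 5.22 and 5.07 on the BALB/c PBS arrays and 5.0, 5.10, 5.14 and 5.48 on the OVA arrays. For Cxcr2, the arrays labelled BALB-RAG gave log2 5.16, 5.26, 5.20 and 4.88 with PBS, and 5.27, 5.11, 5.40 and 5.21 with OVA. The Cxcr2 arrays overlapped, and its BALB/c difference was -0.40 ± 0.22 (limma adjusted p = 0.27).

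Of the ligands of lymphoid tissue, neither Cxcl12 nor Cxcl13 passed the test in BALB/c. Cxcl12, which holds CXCR4-bearing cells in the bone marrow, ranged from log2 8.55 to 9.34 over all 16 arrays. Cxcl13 draws B cells through CXCR5. Cxcl13 levels in BALB/c were log2 6.68, 6.62, 5.78 and 6.01 on the PBS arrays and 7.45, 7.85, 7.29 and 7.80 on the OVA arrays. For Cxcl13, the arrays labelled BALB-RAG gave log2 6.52, 7.35, 6.03 and 7.01 with PBS, and 7.80, 8.53, 5.39 and 7.63 with OVA. In BALB/c the OVA arrays lay above the PBS arrays, while of the OVA arrays labelled BALB-RAG replicate 3 was the lowest of all 16 and replicate 2 the highest. The BALB/c difference of Cxcl13 was 1.32 ± 0.49 (log2 difference and SE, limma adjusted p = 0.0872). With the replicate number as a block it passed (limma adjusted p = 0.0147).

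Cxcr5, the receptor for Cxcl13 on B cells and follicular helper T cells, was measured beside it. In BALB/c, Cxcr5 read log2 4.97, 4.74, 4.86 and 4.44 on PBS replicates 1 to 4, and OVA replicates 1 to 4 read 5.89, 6.07, 4.73 and 5.78. Cxcr5 on the arrays labelled BALB-RAG read log2 4.30, 3.97, 4.05 and 3.79 with PBS, and with OVA it read 3.80, 4.12, 3.65 and 2.90. BALB/c OVA replicate 3 lay inside the PBS range and the 3 other OVA arrays above it. The rise of 0.87 ± 0.28 (log2 difference and SE) was near the threshold (limma adjusted p = 0.0476), and the call was lost when any of 13 of the 16 arrays was left out.

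Of the epithelial and mucosal ligands, Cxcl16 alone rose in BALB/c, 1 of 4 tested. Cxcl16 is a membrane-bound ligand of macrophages, dendritic cells and epithelium, and its receptor is CXCR6. Cxcl16 levels in BALB/c were log2 7.81, 7.74, 6.67 and 6.60 on the PBS arrays and 9.92, 9.41, 8.49 and 7.99 on the OVA arrays. For Cxcl16, the arrays labelled BALB-RAG gave log2 7.07, 6.97, 6.21 and 6.59 with PBS, and 7.27, 6.78, 7.17 and 7.04 with OVA. The lowest BALB/c OVA array was above the highest BALB/c PBS array, and replicates 1 and 2 were higher than 3 and 4 in each BALB/c group. Cxcl16 rose 3.35-fold (1.75 ± 0.38, log2 difference and SE, limma adjusted p = 0.00511).

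Cxcr6, carried by effector T cells and NKT cells, was the receptor with the largest rise. In BALB/c, Cxcr6 read log2 4.34, 3.67, 4.15 and 4.19 on PBS replicates 1 to 4, and OVA replicates 1 to 4 read 7.23, 7.01, 6.24 and 6.65. Cxcr6 on the arrays labelled BALB-RAG read log2 3.62, 3.09, 3.79 and 3.53 with PBS, and with OVA it read 3.33, 3.73, 3.44 and 3.72. No BALB/c OVA array was under 6.24 and no other array was over 4.34, and all 8 arrays labelled BALB-RAG were under log2 4. Cxcr6 rose 6.47-fold in BALB/c (2.69 ± 0.22, log2 difference and SE, limma adjusted p = 1.08e-06). Its other probe set followed the same course over the 16 arrays (Pearson r = 0.958, which includes the group differences).

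Cxcl14 is a ligand made by epithelia without need of inflammation. In BALB/c, Cxcl14 read log2 7.34, 7.31, 7.50 and 7.46 on PBS replicates 1 to 4, and OVA replicates 1 to 4 read 6.37, 6.15, 7.07 and 7.46. Cxcl14 on the arrays labelled BALB-RAG read log2 6.72, 6.35, 6.60 and 6.32 with PBS, and with OVA it read 7.30, 7.26, 6.82 and 6.70. BALB/c OVA replicates 1 and 2 lay about 1 log2 unit under the PBS arrays, replicate 3 just under them and replicate 4 among them. The BALB/c difference was -0.64 ± 0.24 (log2 difference and SE, limma adjusted p = 0.0863). A second probe set of Cxcl14 gave -0.09 ± 0.38 (limma adjusted p = 0.926, every probe set tested on its own), so the call in the difference of responses given further on rests on 1 of 2 probe sets.

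Ccl27a, a skin and mucosal ligand of CCR10, was the lowest of the 30 in its BALB/c difference. Ccl27a levels in BALB/c were log2 6.15, 6.24, 5.75 and 5.38 on the PBS arrays and 5.41, 5.84, 5.20 and 4.25 on the OVA arrays. For Ccl27a, the arrays labelled BALB-RAG gave log2 5.88, 6.07, 5.91 and 5.93 with PBS, and 6.37, 6.71, 5.72 and 5.78 with OVA. BALB/c OVA replicate 4 was the lowest array, and replicates 1 and 2 after OVA overlapped with the PBS arrays. The difference was -0.70 ± 0.30 (log2 difference and SE, limma adjusted p = 0.135), and with the replicate number as a block Ccl27a passed the test (adjusted p = 0.0198). The block gave 18 of 30 calls in this comparison, against 24.2% of all tested genes. Ccl25, the gut ligand of CCR9, ranged from 2.97 to 4.38 over all arrays.

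Among the receptors of CC ligands, Ccr1 and Ccr2 rose in BALB/c, 2 of 4 tested. Ccr2 marks inflammatory monocytes. In BALB/c, Ccr2 read log2 7.91, 9.28, 7.07 and 6.82 on PBS replicates 1 to 4, and OVA replicates 1 to 4 read 9.13, 9.33, 9.29 and 9.41. Ccr2 on the arrays labelled BALB-RAG read log2 7.09, 7.64, 7.62 and 7.69 with PBS, and with OVA it read 7.40, 6.82, 7.39 and 7.25. BALB/c OVA arrays lay within 0.3 log2 units of each other, while BALB/c PBS ran from 6.82 to 9.28, with replicate 2 inside the OVA range. Ccr2 rose 2.87-fold (1.52 ± 0.38, log2 difference and SE, limma adjusted p = 0.0118). It did not pass among replicates 1 and 2 alone (limma adjusted p = 0.406, against 6.46e-04 among replicates 3 and 4 alone). Its 2 other probe sets gave 1.67 ± 0.72 and 0.93 ± 0.32, neither past the threshold (limma adjusted p = 0.145 and 0.0654).

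Ccr1, the myeloid receptor of Ccl5, Ccl6 and Ccl9, was the most variable of the genes that rose. Ccr1 levels in BALB/c were log2 7.12, 7.93, 5.03 and 4.69 on the PBS arrays and 8.75, 9.16, 8.05 and 7.87 on the OVA arrays. For Ccr1, the arrays labelled BALB-RAG gave log2 4.83, 5.96, 4.67 and 5.86 with PBS, and 6.93, 4.91, 7.20 and 6.58 with OVA. The highest BALB/c PBS array, replicate 2, lay above the lowest OVA array, and PBS replicates 1 and 2 were more than 2 log2 units above PBS replicates 3 and 4. Ccr1 rose 4.82-fold in BALB/c (2.27 ± 0.66, log2 difference and SE, limma adjusted p = 0.028). The call was lost without BALB/c PBS replicate 3 or 4, without BALB/c OVA replicate 1 or 2, and among replicates 1 and 2 alone (limma adjusted p = 0.221).

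Ccr7 guides dendritic cells and naive T cells to lymph nodes. In BALB/c, Ccr7 read log2 5.88, 5.39, 5.87 and 5.47 on PBS replicates 1 to 4, and OVA replicates 1 to 4 read 6.76, 5.91, 6.03 and 6.97. Ccr7 on the arrays labelled BALB-RAG read log2 4.99, 4.79, 5.0 and 5.08 with PBS, and with OVA it read 3.55, 5.88, 4.53 and 3.63. The lowest BALB/c OVA array exceeded the highest PBS array by less than 0.1. The difference was 0.77 ± 0.40 (log2 difference and SE, limma adjusted p = 0.229). Ccr9 ranged from 3.62 to 4.56 over all arrays.

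Of the atypical receptors and the related Ccrl2, 0 of 3 passed the test in BALB/c. Ackr3, which scavenges Cxcl12, differed by -0.39 ± 0.17 (log2 difference and SE, limma adjusted p = 0.147). Ackr2 scavenges inflammatory CC ligands. Ackr2 levels in BALB/c were log2 6.24, 6.36, 5.47 and 5.52 on the PBS arrays and 5.62, 5.03, 5.43 and 5.35 on the OVA arrays. For Ackr2, the arrays labelled BALB-RAG gave log2 5.92, 5.73, 4.74 and 6.06 with PBS, and 5.47, 6.08, 5.79 and 5.35 with OVA. All 4 groups of Ackr2 overlapped. It differed by -0.54 ± 0.28 in BALB/c (adjusted p = 0.238, limma) and Ccrl2, which binds chemerin, by -0.35 ± 0.14 (adjusted p = 0.109, limma). Ccrl2 passed when the arrays were scaled to a common median or quantile-normalised, with a term for replicates 1 and 2 against 3 and 4, and without BALB/c OVA replicate 1.

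**Figure D3:**
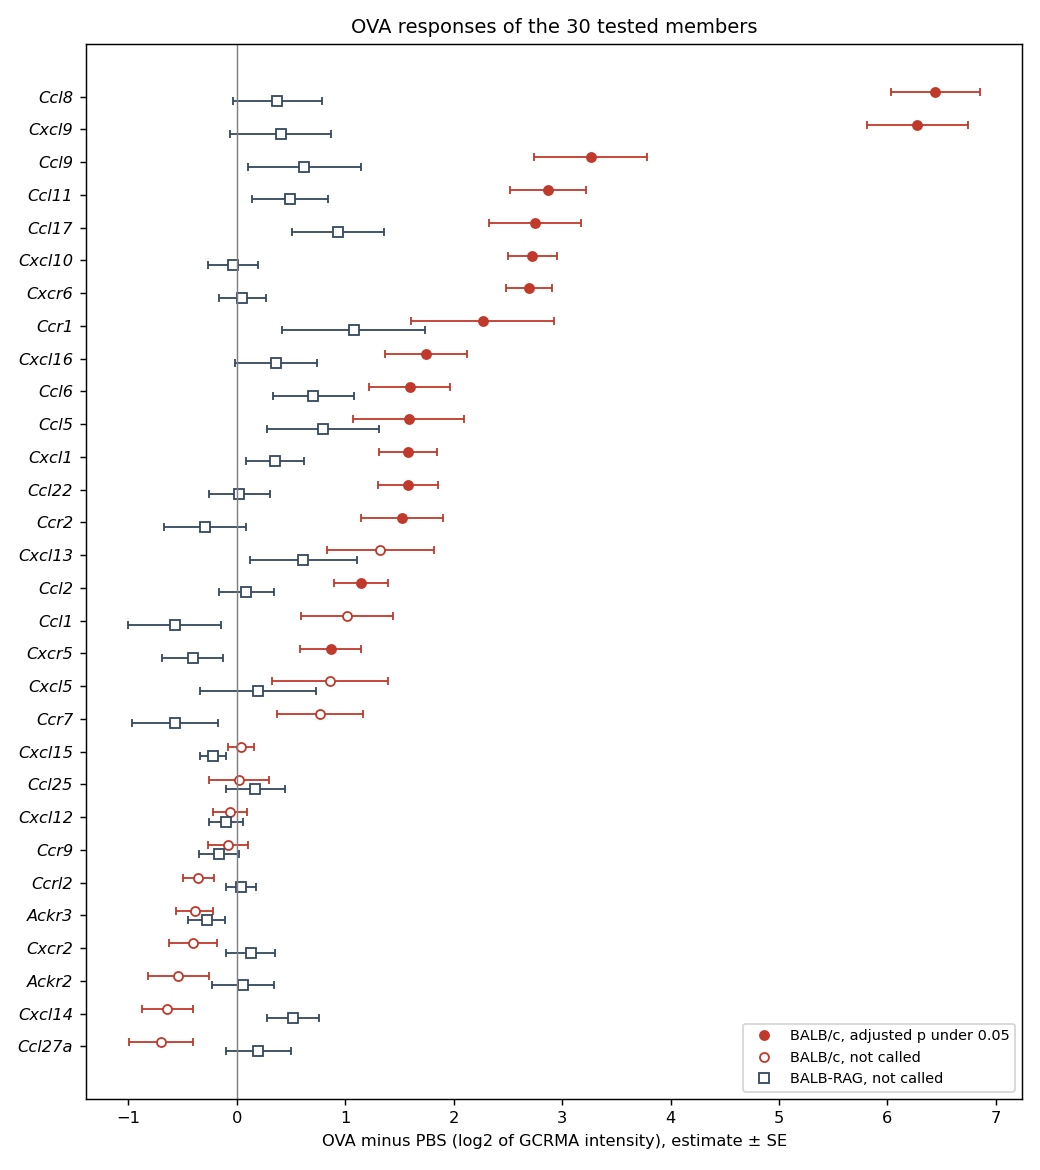
OVA minus PBS (x axis, log2 of intensity, estimate ± SE, n = 4 per group) of the 30 tested genes (y axis), with circles for BALB/c, filled where the limma adjusted p is under 0.05, and squares for the arrays labelled BALB-RAG. Filled circles run from Ccl8 (6.44) to Cxcr5 (0.87), and no square is past the threshold.

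On the arrays labelled BALB-RAG no chemokine or receptor gene passed the test of OVA against PBS. Of the 30 genes 0 passed the test (limma), against 0.165% of all tested genes, and at an unadjusted p under 0.05 2 of 30 were higher, Ccl17 and Cxcl14, and 0 lower, against 4.36% and 3.37% of all tested genes. The differences ran from -0.57 (Ccl1 and Ccr7) to 1.08 (Ccr1) on the log2 scale, with a median of 0.15 against 0.02 over all tested genes. Ccl6 was the 1 gene of 30 whose OVA arrays all lay above the PBS arrays, which was so for 2.64% of all tested genes (0.71 ± 0.37, log2 difference and SE, limma adjusted p = 0.709). The standard errors, from 0.12 (Cxcl15) to 0.66 (Ccr1), limit what could be detected there. The 2 groups also differed in lymphocyte transcripts. The T cell list averaged 4.22 to 4.63 on the PBS arrays and 3.41, 4.95, 3.67 and 3.59 on OVA replicates 1 to 4. The part of this in the OVA differences was not tested. Without OVA replicate 2 labelled BALB-RAG the count was again 0 of 30, while over all genes it was 42 in place of 12.

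The test of the difference between the responses asked whether BALB/c and the arrays labelled BALB-RAG differed in what OVA did. It called 9 of the 30 genes, against 8.49% of all tested genes. For 8 of them the response was larger in BALB/c (4.63% of all tested genes), and for Cxcl14 it was lower there (3.86% of all tested genes). Among the 8, Cxcl9 and Cxcr6 passed the filter only through the BALB/c OVA arrays, which favours a larger response there. The median difference of responses was 1.12 over the 30 genes and -0.01 over all. The unlike lymphocyte transcripts of the PBS and OVA arrays labelled BALB-RAG enter this comparison too, and their part was not tested.

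Ccl8 responded by 6.07 ± 0.58 more in BALB/c (log2 difference of differences, SE, limma adjusted p = 1.38e-05) and Cxcl9 by 5.87 ± 0.66 (limma adjusted p = 5.96e-05). Without OVA replicate 2 labelled BALB-RAG the Cxcl9 value was 6.51 ± 0.37 (limma adjusted p = 8.78e-08). Cxcl10 followed with 2.76 ± 0.32 (limma adjusted p = 7.92e-05) and Cxcr6 with 2.65 ± 0.30 (limma adjusted p = 7.69e-05). These 4 genes kept their call under every other analysis setting named under the processing. Ccl11 (2.38 ± 0.50, limma adjusted p = 0.00726) lost it among replicates 1 and 2 alone (limma adjusted p = 0.248). In that subset its response on the arrays labelled BALB-RAG was 1.10 against 2.24 in BALB/c.

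Weaker differences were those of Ccl9 (2.64 ± 0.73, limma adjusted p = 0.0362), Ccr2 (1.82 ± 0.54, limma adjusted p = 0.0469), Ccl22 (1.55 ± 0.40, limma adjusted p = 0.0236) and Cxcl14 (-1.16 ± 0.34, limma adjusted p = 0.0443). With every probe set tested on its own, no probe set of Ccr2 passed (limma adjusted p = 0.0525, 0.361 and 0.14). Nor did any of Cxcl14 (limma adjusted p = 0.0504 and 0.826), and both genes lost the call with the mean of probe sets. The call was lost with 1 array left out in 9 of 16 cases for Ccl9, 15 of 16 for Ccr2, 6 of 16 for Ccl22 and 13 of 16 for Cxcl14. Between 5 and 11 genes were called across the 16 cases. Of these 4 genes, Ccl22 and Cxcl14 passed among replicates 1 and 2 alone (limma adjusted p = 0.0269 and 0.00819) and not among replicates 3 and 4 alone (0.382 and 0.415). Ccl9 and Ccr2 passed among replicates 3 and 4 alone (limma adjusted p = 0.0119 and 0.00346) and not among replicates 1 and 2 alone (0.0641 and 0.435). Without OVA replicate 2 labelled BALB-RAG, 9 genes were called, against 7.92% of all tested genes: Ccl9, Ccr2 and Cxcl14 dropped out, and Ccr7 (1.83 ± 0.38, limma adjusted p = 0.0078), Cxcl1 (1.49 ± 0.32, limma adjusted p = 0.0103) and Cxcr5 (1.44 ± 0.40, limma adjusted p = 0.037) came in. With the replicate number as a block there were 14, against 15.8% of all tested genes, with Ccl2, Ccl17, Ccl27a, Cxcl16 and Cxcr5 added.

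**Figure D4:**
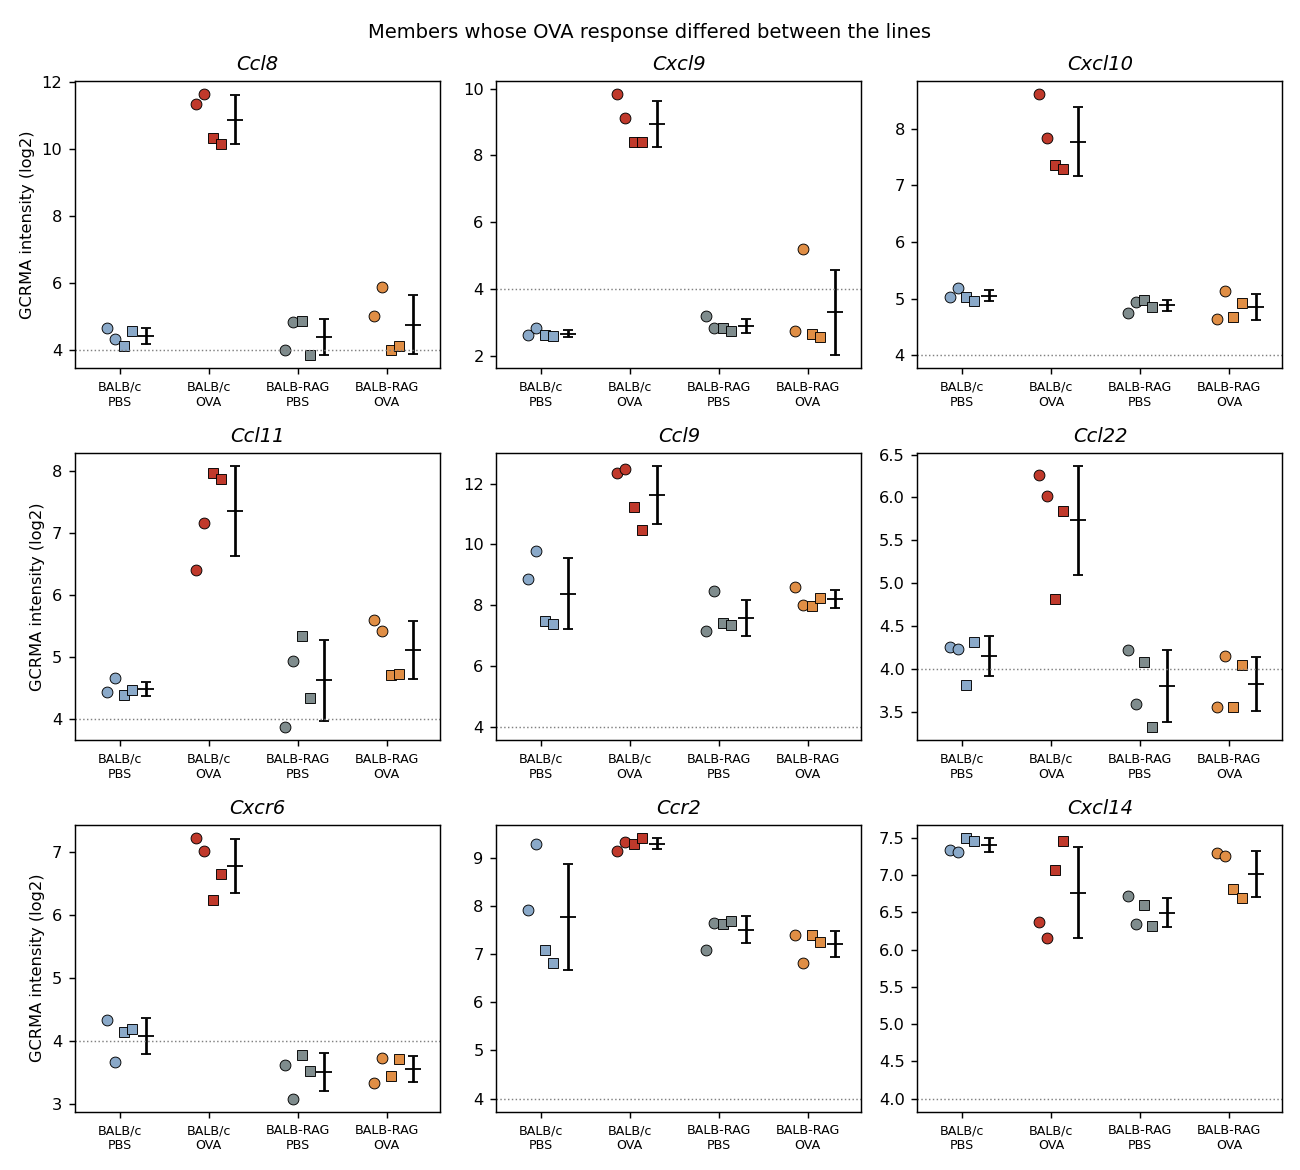
Log2 intensity (y axis) on each array by group (x axis) for the 9 genes whose OVA response differed between BALB/c and the arrays labelled BALB-RAG; circles are replicates 1 and 2, squares replicates 3 and 4, the bar is the mean ± SD of 4 arrays and the dotted line is the background of log2 4. In the Cxcl9 panel OVA replicate 2 labelled BALB-RAG (5.21) lies above the 3 other arrays of its group (2.58 to 2.75), and in the Cxcl14 panel BALB/c OVA replicates 1 and 2 (6.37 and 6.15) lie under the PBS arrays.

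After PBS the lines differed in few chemokine genes. Of the 30 tested genes 2 were lower on the arrays labelled BALB-RAG, Ccl17 and Cxcl14, and 0 were higher. Over all tested genes 3.9% passed the test, 1.94% lower. At an unadjusted p under 0.05, 6 were lower and 0 higher (limma), against 8.32% and 7.55% of all tested genes. For Ccl17 the 4 arrays labelled BALB-RAG were all under the background and under every BALB/c PBS array, so it was at least 1.87-fold lower (-1.73 ± 0.42, log2 difference and SE, limma adjusted p = 0.0312). Its values within the replicate sets were -2.62 for replicates 1 and 2 (adjusted p = 0.0127) and -0.85 for replicates 3 and 4 (adjusted p = 0.376, limma). Cxcl14 was 1.87-fold lower (-0.91 ± 0.24, log2 difference and SE, limma adjusted p = 0.0454), with the second probe set at -0.48 ± 0.38 (limma adjusted p = 0.632).

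Neither call was stable: with 1 array left out between 0 and 2 of the genes were called, and among replicates 3 and 4 alone the count was 0. Ccl17 lost its call without BALB/c PBS replicate 1 or 2 and without PBS replicate 2 or 3 labelled BALB-RAG, and Cxcl14 in 11 of the 16 cases. The Ccl17 call was also lost with values under log2 4 set to 4 and with only the groups compared. With the replicate number as a block 3 genes passed, against 8.37% of all tested genes, with Ccl5 added (-1.68 ± 0.51, log2 difference and SE; limma adjusted p = 0.0868 without the block and 0.00726 with it). The 4 arrays labelled BALB-RAG lay under all BALB/c arrays for 6 of the 30 genes (Ccl17, Ccl25, Ccr7, Cxcl14, Cxcl15 and Cxcr5), and for 5.44% of all tested genes. The median difference was -0.35 over the 30 genes and -0.01 over all.

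After OVA, 19 of the 30 genes were lower on the arrays labelled BALB-RAG than in BALB/c and 1, Ccl27a, was higher. Over all tested genes 23.8% passed the test, 12.1% lower and 11.6% higher. The 19 were the 16 genes that rose with OVA in BALB/c and Ccl1, Ccr7 and Cxcl15. Both comparisons use the same BALB/c OVA arrays, so these counts are not independent. Among the 19, Ccl1, Ccl2, Cxcl1, Cxcl9 and Cxcr6 passed the filter only through those arrays, which favours a lower value on the others. For 20 of the 30 genes all 4 arrays labelled BALB-RAG lay under the 4 BALB/c arrays, against 13.6% of all tested genes. The median was -1.51 over the 30 genes and 0.01 over all.

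Ccl8 was 69.0-fold lower (-6.11 ± 0.41, log2 difference and SE, limma adjusted p = 8.8e-08), and Cxcl9 differed by -5.64 ± 0.47 (limma adjusted p = 8.51e-07), with 3 of the 4 lower arrays under the background. Without OVA replicate 2 labelled BALB-RAG the Cxcl9 difference was -6.28 ± 0.27 (limma adjusted p = 1.91e-09). Ccl17 was 11.8-fold lower (-3.56 ± 0.42, limma adjusted p = 2.46e-05), Ccl9 10.7-fold (-3.42 ± 0.52, limma adjusted p = 1.89e-04) and Cxcl10 7.62-fold (-2.93 ± 0.23, limma adjusted p = 4.3e-07). For Ccl17, 2 of the 4 arrays labelled BALB-RAG were under log2 4, so its fold reaches below the background. Cxcr6 was at least 6.88-fold lower and Ccl2 at least 2.42-fold, since all 4 arrays labelled BALB-RAG were under log2 4.

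Genes of lymphocyte receptors were among the 19. Cxcr5 was 4.0-fold lower (-2.0 ± 0.28, log2 difference and SE, limma adjusted p = 1.0e-04) and Ccr7 4.06-fold (-2.02 ± 0.40, limma adjusted p = 0.00146). Of the 4 OVA arrays labelled BALB-RAG, 3 were under log2 4 for Cxcr5 and 2 for Ccr7, so both folds reach below the background. Ccr7 on OVA replicate 2 labelled BALB-RAG read 5.88, near the lowest BALB/c OVA array at 5.91. Without it the Ccr7 difference was -2.52 ± 0.28 (limma adjusted p = 1.95e-05). On these arrays 11 of 13 tested T cell genes were lower, 8 of 9 B cell, 9 of 9 dendritic cell, 4 of 6 macrophage, 3 of 6 plasma cell, 3 of 4 NK cell and 1 of 4 eosinophil genes. Of all tested genes 12.1% were lower there and 11.6% higher. Club cell genes were higher in 3 of 5, muscle genes in 4 of 7 and adipose genes in 2 of 2. The part of these cells in the receptor differences was not tested.

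Smaller differences after OVA were those of Cxcl15 (-0.52 ± 0.12, log2 difference and SE, limma adjusted p = 0.0046) and Ccl27a (0.97 ± 0.30, limma adjusted p = 0.0265). Ccl1 was at least 1.12-fold lower, since all 4 arrays labelled BALB-RAG were under log2 4 (limma adjusted p = 0.044). Its call was lost under 14 of the 29 other settings in which it was tested. Among them were values under log2 4 set to 4, median scaling and 8 of the 16 single arrays left out. With the filter at log2 5 Ccl1 was not tested. Without OVA replicate 2 labelled BALB-RAG 17 genes were called, against 21.6% of all tested genes, with Ccl1, Ccl27a and Ccr1 lost (limma adjusted p = 0.0626, 0.0854 and 0.106). Of the 20 calls 11 held under every other analysis setting named under the processing in which the gene was tested. Among the 11, Cxcr5 was not tested with the filter at log2 5. Between 17 and 20 genes were called with 1 array left out.

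The 15 genes that did not pass the filter fell into groups of their own. Cxcl11, Ccr1l1, Ccr4, Ccr8, Ccr10 and Ackr4 exceeded log2 4 on no array, so neither CCR4 nor CCR8, the receptors of Ccl17, Ccl22, Ccl1 and Ccl8, was measured above background. Cx3cl1 exceeded it on BALB/c PBS replicate 4 alone (4.03) and Xcr1, a receptor of cross-presenting dendritic cells, on BALB/c OVA replicate 1 alone (4.08).

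Ccl12 and Ccl7, CCR2 ligands that lie beside Ccl11 in the genome, were seen after OVA in BALB/c. Ccl12 read log2 6.57, 6.60, 5.22 and 3.79 on BALB/c OVA replicates 1 to 4 and 2.41 to 3.24 on the 12 other arrays. Ccl7 read log2 4.18, 3.57, 3.92 and 5.03 on BALB/c OVA replicates 1 to 4 and 2.85 to 3.11 on the 12 other arrays. For both genes each BALB/c OVA array was over every array of the 3 other groups, none of which exceeded log2 3.3. Ccl12 was at least 2.92-fold higher after OVA and Ccl7 at least 1.13-fold. When every named gene was tested without a filter, both passed in BALB/c (limma adjusted p = 0.00122 for Ccl12 and 0.00205 for Ccl7). In that fit 16 of the 45 genes were called in BALB/c, against 11.3% of all 9866 genes, with Ccl5 and Cxcr5 lost. Both also passed in the difference of responses (9 of 45 genes, against 6% of all, with Ccr2 and Cxcl14 lost). After OVA Ccl12, Ccl7, Ccl3 and Xcl1 were lower on the arrays labelled BALB-RAG (23 of 45 genes, against 17.5% of all, with Ccl1 lost).

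Another 5 genes exceeded log2 4 on BALB/c OVA replicates 1 and 2 and on no other array: Ccr3, the eotaxin receptor of eosinophils, Ccl3 and Ccl4, macrophage inflammatory proteins, Ccl20, the ligand of CCR6, and Xcl1, a ligand made by activated T and NK cells. Ccr3 read log2 5.50, 5.25, 2.53 and 2.30 on BALB/c OVA replicates 1 to 4 and 2.15 to 2.61 on the 12 other arrays. Ccl3 read log2 6.80, 6.22, 2.88 and 3.79 on BALB/c OVA replicates 1 to 4 and 2.23 to 3.77 on the 12 other arrays. For both genes replicates 3 and 4 after OVA lay within the range of the 12 other arrays or at its upper edge. Ccl4 read log2 5.09, 4.35, 2.15 and 2.18 on BALB/c OVA replicates 1 to 4 and 1.71 to 2.95 on the 12 other arrays. Ccl20 read log2 6.71, 6.26, 3.08 and 3.38 on BALB/c OVA replicates 1 to 4 and 2.94 to 3.54 on the 12 other arrays. Xcl1 read log2 5.40, 5.52, 3.14 and 3.13 on BALB/c OVA replicates 1 to 4 and 2.55 to 3.25 on the 12 other arrays. The same 2 arrays stood out for each gene. Without the filter none of the 5 passed in BALB/c (limma adjusted p from 0.0759 for Ccl20 to 0.193 for Ccl4). Ccl11 ran the other way, with 6.4 and 7.16 on replicates 1 and 2 and 7.97 and 7.87 on replicates 3 and 4.

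**Figure D5:**
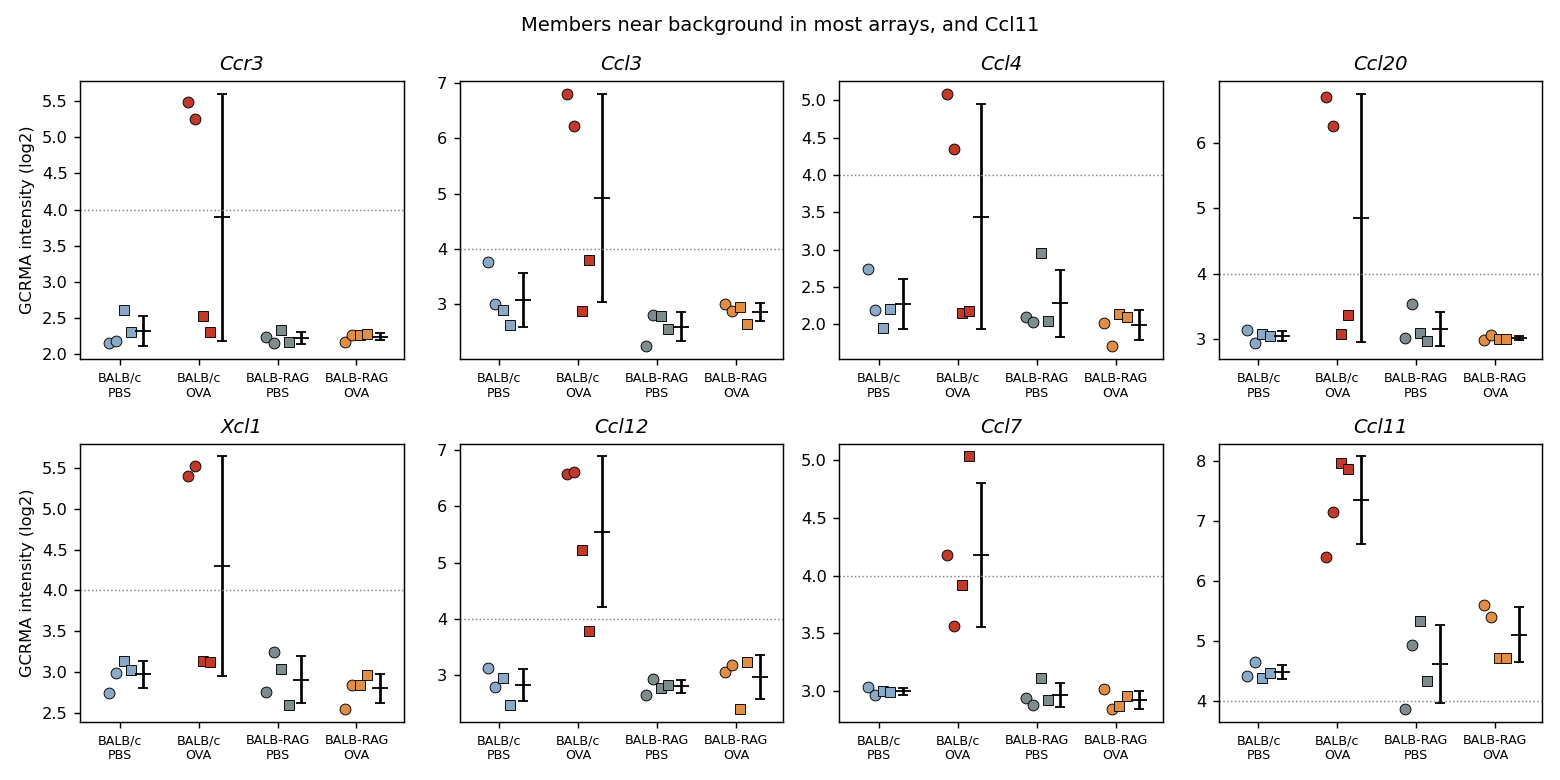
Log2 intensity (y axis) on each array by group (x axis) for 7 genes that did not pass the filter and for Ccl11; circles are replicates 1 and 2, squares replicates 3 and 4, the bar is the mean ± SD of 4 arrays and the dotted line is log2 4. For Ccr3, Ccl3, Ccl4, Ccl20 and Xcl1 the circles of BALB/c OVA lie over the dotted line and the squares under it, and for Ccl11 the squares lie higher.

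The split between replicates 1 and 2 and replicates 3 and 4 ran through the PBS arrays as well. In BALB/c after PBS, replicates 1 and 2 were higher than replicates 3 and 4 for Ccl5 (7.96 and 8.13 against 6.04 and 5.59), Ccr1 (7.12 and 7.93 against 5.03 and 4.69) and Ccl17 (5.70 and 5.80 against 3.92 and 4.20). The macrophage list averaged 8.96 and 8.78 on the first 2 arrays and 8.52 and 8.32 on the others, and the neutrophil list 7.94 and 9.11 against 6.20 and 5.62. The labels do not say what the replicate numbers stand for. Within replicates 1 and 2 the OVA difference of Ccl17 was 1.70 in BALB/c and within replicates 3 and 4 it was 3.80, and for Ccl5 the values were 0.87 and 2.30.

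Many of the genes are neighbours in the genome. In the RefSeq annotation of GRCm38.p6, Ccl2, Ccl7, Ccl11, Ccl12, Ccl8 and Ccl1 follow each other with no other protein-coding gene between them. Of these, Ccl2, Ccl11 and Ccl8 rose in BALB/c, Ccl7 and Ccl12 passed in the fit without the filter, and Ccl1 did not pass. Ccl5, Ccl9, Ccl6, Ccl3 and Ccl4 form another such run, where the first 3 rose and the last 2 were high on BALB/c OVA replicates 1 and 2 alone. Ccl22 and Ccl17 rose on either side of Cx3cl1, which read 2.47 to 3.31 in BALB/c after OVA. Cxcr6, Xcr1, Ccr1, Ccr1l1, Ccr3 and Ccr2 are a run of receptors, of which Cxcr6, Ccr1 and Ccr2 rose. Cxcl9 and Cxcl10 are separated by Art3.

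The wider signalling path of the receptors was taken from a list of 55 genes, of which 41 were placed and 38 tested. In BALB/c 15 of the 38 rose with OVA and 0 fell, with a median difference of 0.65. Of all tested genes 8.73% rose and 6.78% fell. On the arrays labelled BALB-RAG 0 passed, against 0.165% of all tested genes. The response differed for 6, all larger in BALB/c, against 4.63% of all tested genes. Rgs1, which switches off Gi signals of chemokine receptors in lymphocytes, rose by 3.65 ± 0.49 (log2 difference and SE, limma adjusted p = 1.39e-04), Dock2, which activates Rac in migrating leukocytes, by 1.78 ± 0.17 (limma adjusted p = 5.25e-06) and Pik3r5, a subunit of phosphoinositide 3-kinase gamma, by 1.73 ± 0.22 (limma adjusted p = 9.03e-05).

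Prkcd, a protein kinase C, rose by 1.31 ± 0.15 (log2 difference and SE, limma adjusted p = 2.57e-05), Jak3 by 1.01 ± 0.19 (limma adjusted p = 0.00212) and Arrb2, the arrestin that takes receptors off the surface, by 1.21 ± 0.24 (limma adjusted p = 0.00278). Arrb2 did not pass in the difference of responses (limma adjusted p = 0.413), and the other 5 did. After OVA 17 of the 38 were lower on the arrays labelled BALB-RAG and 2, Rarres2 and Wasl, were higher. Of all tested genes 12.1% were lower and 11.6% higher. After PBS 2, Vcam1 and Sdc4, were lower and 1, Gnb1, was higher. Of all tested genes 3.9% passed there, 1.94% lower. Many of these genes are expressed by leukocytes in general, and the part of these cells in the differences was not tested.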

How the data were processed

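Whole-lung RNA of 16 samples (6 microg each, per the labels) was measured on Affymetrix arrays. The deposited values are intensity values on a linear scale, made by the authors with GCRMA per the submitters' processing notes, and version and probe annotation are not given in the sources used here. They were turned into log2 for every test.

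The platform annotation lists 45101 probe sets. In the deposited table the names sit away from their values, so names were kept only in 3 stretches (14300 probe sets, 13146 of them with 1 symbol, 366 with several and 788 with none): the values lie at -64, 47 and 16168 rows from the name (negative is above it). These shifts were found by search and are described by no label. The placement was checked with probe sets of the same gene, whose median correlation over the arrays was 0.673, 0.627 and 0.632 in the 3 stretches, against 0.185, 0.139 and 0.152 as deposited. In the second stretch 47 rows above gave 0.0459. This check is not independent of the search, and the correlations include the group differences. Symbols were matched to RefSeq, which changed 0 of them.

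A gene with several probe sets was read from the brightest on average. A gene was tested when it exceeded log2 4 on at least 4 arrays. limma 3.58.1 (R 4.3.3) took all 16 arrays in 1 fit of 4 groups, which leaves 12 residual degrees of freedom, with Benjamini-Hochberg adjustment over 7276 genes. A fold against a group wholly under log2 4 is a bound, taken against log2 4. Genes to be given array by array were those past the threshold in any comparison and their receptor or ligand partners. The members and all lists were chosen with earlier results of these data known. Alternatives covered the filter, floor, scaling, choice of probe set, array weights, groups in the fit, replicate block, replicate subsets and each array left out. The limma script was checked on simulated data.

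Deviations of same-numbered arrays from their group means correlated by 0.0253 to 0.497. Every pair was over 0.1 for OVA against PBS in BALB/c, and for the 2 lines after PBS and after OVA. For the arrays labelled BALB-RAG the lowest pair was 0.0253. Arrays of replicates 1 and 2, or of 3 and 4, correlated as well as those of the same number (medians 0.308 and 0.30), and arrays across those sets by -0.461 to -0.0156. The deviations thus followed the 2 sets, and they do not show that equal numbers pair samples.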

Additional observations from a re-analysis of the deposited data

Results flagged for a closer look

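For 9 of the 30 tested genes the response to OVA differed between BALB/c and the arrays labelled BALB-RAG. The difference (log2, BALB/c minus BALB-RAG) was 6.07 for Ccl8, 5.87 for Cxcl9, 2.76 for Cxcl10, 2.64 for Cxcr6, 2.64 for Ccl9, 2.38 for Ccl11, 1.82 for Ccr2, 1.55 for Ccl22 and -1.16 for Cxcl14.

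In 9 of 120 groups of 4 arrays 1 array lay far from its fellows by Dixon's test, where chance gives about 1 in 20. OVA replicate 2 labelled BALB-RAG was that array for Cxcl9 (log2 5.21, the others 2.58 to 2.75), Cxcl1 (4.50, the others 3.39 to 3.53), Ccl25 (4.06, the others 3.34 to 3.42) and Cxcl5 (3.01, the others 4.67 to 4.96). Among the PBS arrays labelled BALB-RAG they were replicate 2 for Cxcl12 (9.34, the others 8.81 to 8.88) and replicate 1 for Ccr2 (7.09, the others 7.62 to 7.69). Among the BALB/c PBS arrays they were replicate 3 for Ccl22 (3.81, the others 4.24 to 4.32), replicate 2 for Cxcl9 (2.84, the others 2.60 to 2.62, all under background) and replicate 4 for Ccrl2 (7.27, the others 7.55 to 7.60).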

How the results depend on the processing

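No call of a chemokine or receptor gene changed direction under the settings named under the processing. With the replicate number as a block, or with a term for replicates 1 and 2 against 3 and 4, the difference of responses called 14 genes in place of 9 in each case. For the lines after PBS the count of 2 fell to 1 with no filter, with values under log2 4 set to 4, with quantile normalization, with the mean of a gene's probe sets and with only the groups compared, and to 0 among replicates 3 and 4 alone. Leaving out 1 array gave 13 to 17 genes for OVA against PBS in BALB/c (16 with all arrays), 0 to 0 on the arrays labelled BALB-RAG, 5 to 11 for the difference of responses, 0 to 2 for the lines after PBS and 17 to 20 for the lines after OVA. Of the 16 genes that rose in BALB/c 9 kept the call under all of these settings, of the 9 with different responses 4, of the 2 after PBS 0 and of the 20 after OVA 11. Among those 11, Cxcr5 was not tested with the filter at log2 5. Within replicates 1 and 2 alone the counts were 15, 0, 9, 2 and 18 in that order of comparisons, and within replicates 3 and 4 alone 13, 0, 9, 0 and 14. Equal counts held other genes. For the difference of responses replicates 1 and 2 kept 6 of the 9 and added Ccl1, Cxcl16 and Cxcr5. Replicates 3 and 4 kept 7 and added Ccl17 and Cxcl1. After PBS replicates 1 and 2 lost Cxcl14 and added Ccl5. With the values of the second stretch taken 47 rows above the names, the direction first written, the counts were 14, 0, 7, 2 and 16. The direction used here was chosen after the values had been seen. Genes of the first stretch keep their values in that setting, and same-gene probe sets of the second correlated by 0.0459. The nearness of the counts is therefore no check of the placement.

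Over all tested genes the calls moved by more than 1.5 times under some settings. For OVA against PBS in BALB/c (1128) they were 1764 with the block, 1820 with the replicate term, 547 among replicates 3 and 4 and 1933 with array weights. For the difference of responses (618) they were 1152, 1214, 212 and 1129 under the same settings. For the lines after PBS (284) they were 609, 635, 52 and 518, and 142 with only the groups compared, 184 or 185 without BALB/c PBS replicate 1 or 2 and 174 without PBS replicate 1 labelled BALB-RAG. For the lines after OVA (1729) they were 693 among replicates 3 and 4 and 2904 with array weights. On the arrays labelled BALB-RAG (12) they were 22 with a filter at log2 5, 29 with median scaling, 24 with quantile normalization, 21 with the mean of probe sets, 5 with only the groups compared, 41 with the block, 67 with the replicate term, 3 and 5 among replicates 1 and 2 and 3 and 4, and 30 with array weights. Without single arrays they were 24 (BALB/c OVA replicate 3), 6 (PBS replicate 1 labelled BALB-RAG) and 7, 42, 7 and 6 (OVA replicates 1 to 4 labelled BALB-RAG). The causes were not tested. Where all 4 arrays of a group lie under log2 4, the signal over background allows a bound only.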
